A study of Mus musculus with 12 samples.

Results

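The clustered alpha and gamma protocadherins are neuronal cell-surface adhesion genes that lie in tandem arrays on mouse chromosome 18. The gene symbols used here cover 14 alpha genes (Pcdha1 to Pcdha12, Pcdhac1, Pcdhac2) and 22 gamma genes (the Pcdhga, Pcdhgb and Pcdhgc names), 36 in all. The members were every exon-exon junction whose gene label holds any of these symbols. That rule took 628 of 599830 distinct junctions with a gene symbol in the table of 8 libraries, and 467 of 426002 in the separate table of 4 libraries. The tables merge the 36 genes into a single locus entry, so most of what the rule took is not alpha or gamma. Among those of the table of 8 libraries, 59 lay in the alpha cluster, 92 in the gamma cluster, 235 in the beta protocadherins between them, 3 joined these regions, and 239 belonged to neighbouring genes upstream (Tmco6, Ik, Wdr55, Hars2 and Zmat2), which were left out of everything below. The same classes held 40, 63, 179, 1 and 184 junctions in the table of 4 libraries.

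Each alpha or gamma gene contributes a large variable exon with its own promoter, which encodes the extracellular and transmembrane parts and is spliced to constant exons shared by the whole cluster. Neurons choose their promoters largely at random, with CTCF and cohesin bringing a distant enhancer to the chosen promoter, and the resulting set of proteins serves as a surface identity by which dendrites of the same cell avoid each other. The C-type genes (Pcdhac1, Pcdhac2, Pcdhgc3, Pcdhgc4 and Pcdhgc5) are an exception in that their choice is largely not random, and Pcdhac2 is known for the spacing of serotonergic axons in mice. The beta genes have single-exon coding sequences and no constant exons.

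The 12 libraries came from wild-type NMRI mice, 2 libraries in each of 6 groups, and were made with a stranded poly(A) RNA kit. The groups of the table of 8 libraries were neocortical cultures given DRB, a blocker of RNA polymerase II elongation, at 50 uM for 2 hours (the DRB cultures below), untreated cultures, neocortex at postnatal day 49 (P49) and neocortex at postnatal day 10 (P10). Those of the table of 4 libraries were cultures given DRB at 50 uM for 2 hours plus bicuculline, a blocker of GABA-A receptors, at 20 uM for 1 hour, and a separate group of cultures given DRB alone. All cultures were dissociated neocortical cells of E16.5 embryos kept for 14 days. Separate animals or cultures are not stated for the 2 libraries of any group, and p-values here therefore reflect only how far these libraries differ, which may be technical variation. The P10 columns share a tissue code in their names while the P49 columns differ in theirs. The P10 libraries may therefore come from the same tissue, and the SDs at P10 may then be technical. Over all junctions, the P10 libraries differed from each other the most of any group. Some column names of the first table mention TTX, a blocker of action potentials, and the labels do not state whether its DRB cultures received it. Libraries are numbered 1 and 2 in the order of the columns.

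The libraries held between 49520081 and 73835436 spliced reads in the first table and between 62364553 and 69786511 in the second. Levels are given as counts per 1000000 spliced reads (CPM) after scaling by trimmed mean of M values, and they are set side by side only within a table, since the tables were normalised separately. The summed level of 6 neuron markers lay between 1960 and 5590 CPM in the first table, with all 6 detected in every library. The 3 serotonergic markers Tph2, Slc6a4 and Fev together gave 0.886 and 1.15 CPM in P49 neocortex and 3.48 and 3.63 CPM in P10 neocortex. Choroid plexus markers summed to 233 and 246 CPM in the DRB cultures and 230 and 219 CPM in the untreated cultures. The neocortex libraries had 3.6 to 10.8 CPM. The culture sums were carried by Ttr, with 223 and 235 CPM in the DRB cultures and 210 and 201 CPM in the untreated cultures. Folr1 and Otx2 were also higher in these cultures than in neocortex. Kl was lower, at no more than 0.121 CPM, against 0.535 to 0.909 CPM in neocortex. Aqp1 overlapped with P10 neocortex. In the second table the 5 markers summed to 20 to 28.3 CPM.

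Almost all cluster reads that had a row fell on a few junctions. The alpha cluster held 24614 reads in the table of 8 libraries. Of these, 99.0% lay on 4 junctions, those of the constant exons and that of Pcdhac2. The gamma cluster held 75955 reads, 97.7% of them on 3 constant-exon junctions. The same junctions took 98.7% of 8104 alpha reads and 97.2% of 33969 gamma reads in the table of 4 libraries. The annotation of the same build holds 41 introns from a variable exon of 35 genes to the first constant exon. Of these introns, that of Pcdhac2 was the single member with a row on the coding strand, with 2435 reads in the table of 8 libraries and 762 in the table of 4 libraries. The other 34 genes, including Pcdhac1 and the gamma C-type genes, were not analysed here by their own junctions. All rows of both tables were listed as joining consecutive exons, so the missing rows may come from the table format. Pcdhac2 reads were far fewer than those of the first alpha constant-exon junction in every library. Most reads of that junction thus had no counterpart at a variable exon. The lack of a row does not show that a gene was silent. The levels below are therefore those of Pcdhac2 and of the constant exons that all alpha or all gamma transcripts share.

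Positions are on the plus strand of chromosome 18 in GRCm38 (mm10) and give the first and last base of each intron. The Pcdhac2 junction spans 37146531 to 37156154, a 9624-nt intron of a single annotated transcript. The alpha constant exons are joined by the introns 37156214 to 37159264 (3051 nt, exon 1 to exon 2) and 37159354 to 37184945 (25592 nt, exon 2 to exon 3). A further annotated intron, 37185048 to 37185475 (428 nt), lies within alpha constant exon 3 and is removed in 6 of 22 annotated alpha transcripts. The gamma constant exons are joined by the introns 37825080 to 37833264 (8185 nt, exon 1 to exon 2) and 37833354 to 37839902 (6549 nt, exon 2 to exon 3). Constant exon 1 has the same length, 59 nt, in both clusters.

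Gamma constant-exon junctions had more reads than alpha ones in every library. Reads over a junction do not scale with transcript length, so the levels of both clusters can be set side by side on this scale. The gamma exon 1 to 2 junction stood at 97.5 ± 1.9 CPM in the DRB cultures, 85.5 ± 0.091 CPM in the untreated cultures, 66.3 ± 3.2 CPM in P49 neocortex and 77.9 ± 0.11 CPM in P10 neocortex (SD, n = 2 each). The alpha exon 1 to 2 junction stood at 22.7 ± 1.4, 14.5 ± 2.0, 13.5 ± 0.028 and 25.9 ± 0.43 CPM in the same groups. At exon 1 to 2 the groups thus ranked differently in the clusters: P10 neocortex had the highest alpha mean and the DRB cultures the highest gamma mean. The intron within alpha constant exon 3 had its highest mean in the DRB cultures, 8.15 ± 1.4 CPM, against 4.79 ± 0.064 CPM in P10 neocortex. The DRB cultures were not tested against P10 neocortex. In the table of 4 libraries the alpha exon 1 to 2 junction averaged 11.2 ± 0.36 CPM with DRB plus bicuculline and 11.7 ± 0.33 CPM with DRB alone. The gamma exon 1 to 2 junction averaged 66.4 ± 2.4 and 67.4 ± 0.56 CPM (SD, n = 2 each).

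**Figure D1:**
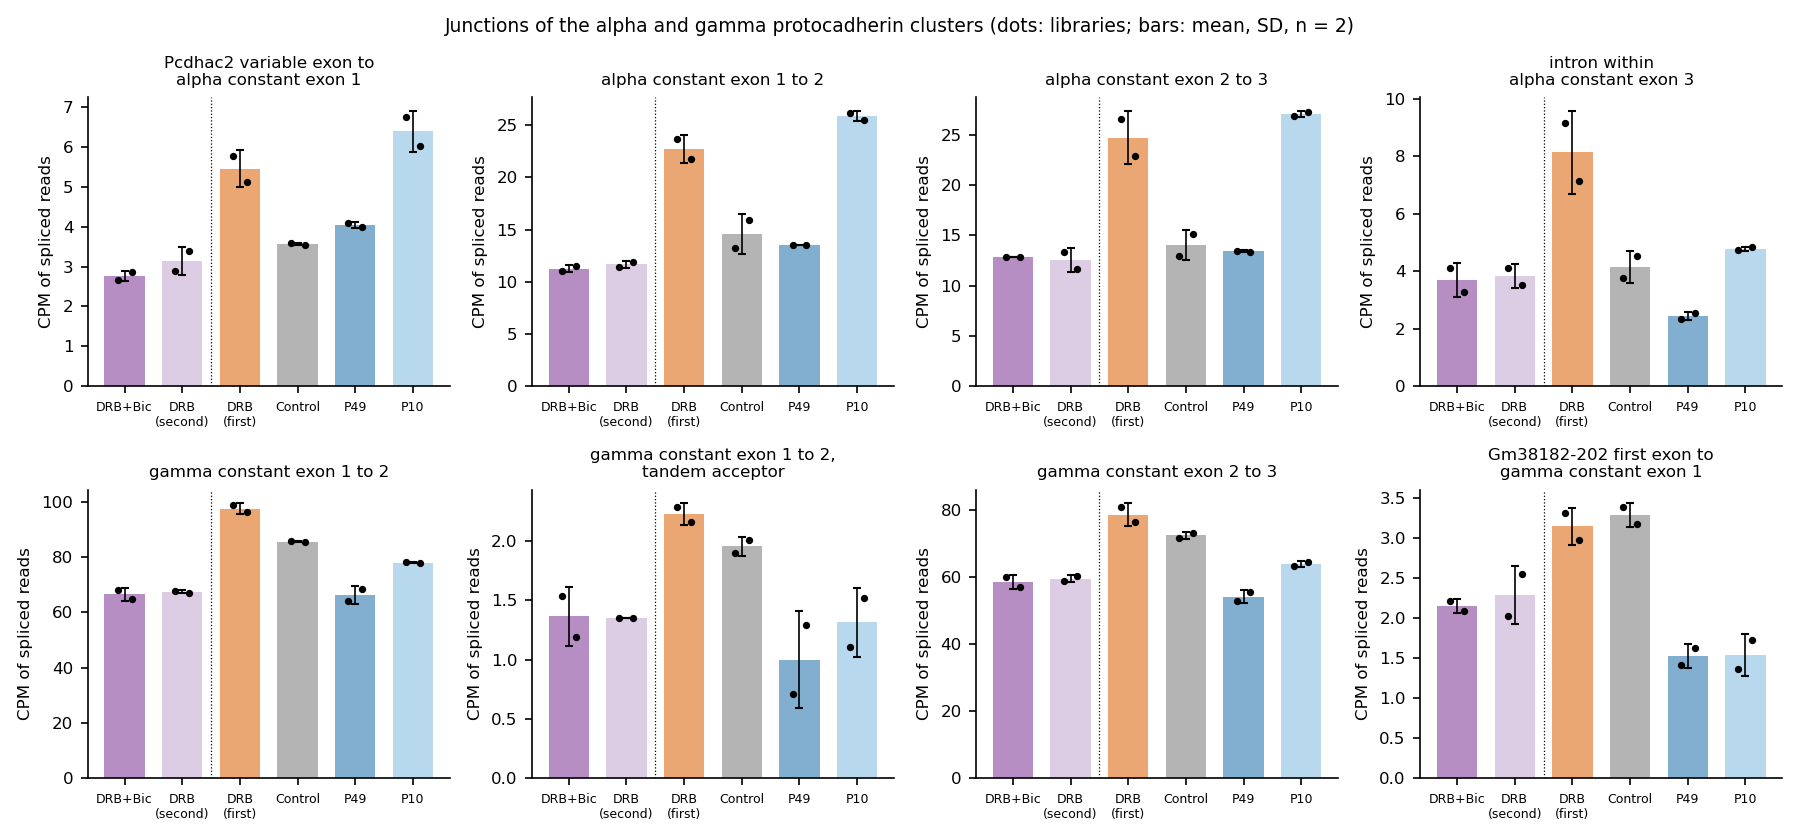
Levels in CPM of the constant-exon, Pcdhac2 and Gm38182 junctions in each library (dots) with the mean and SD of each group (bars, n = 2); a dotted line separates the tables, which were normalised separately. The alpha constant junctions were between 13.4 and 13.5 CPM in P49 neocortex and between 25.5 and 27.3 CPM in P10 neocortex, while gamma exon 1 to 2 stayed between 64.0 and 98.8 CPM over the libraries of the first table.

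The first comparison asked how the clusters differ between P49 and P10 neocortex. The alpha cluster was lower at P49 at all 4 of its main junctions, and the gamma constant exons were lower by a smaller amount. The alpha exon 1 to 2 junction had 895 and 793 reads (13.5 and 13.5 CPM) in P49 neocortex, against 1748 and 1834 reads (26.2 and 25.5 CPM) in P10 neocortex. It fell by 0.94 on the log2 scale (SE 0.089, edgeR quasi-likelihood adjusted p = 1.5e-08). The alpha exon 2 to 3 junction had 890 and 785 reads at P49, against 1798 and 1960 reads at P10, a log2 change of -1.02 (SE 0.089, edgeR adjusted p = 4.5e-09). The spread within a group was a small part of the difference at both junctions. In P49 and P10 neocortex the SDs were 0.028 and 0.43 CPM at exon 1 to 2. They were 0.071 and 0.29 CPM at exon 2 to 3.

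Pcdhac2 moved in the same direction. Its own junction had 271 and 234 reads (4.10 and 3.98 CPM) in P49 neocortex, against 451 and 433 reads (6.75 and 6.03 CPM) in P10 neocortex. The log2 change was -0.66 (SE 0.11, edgeR adjusted p = 6.7e-05). Set against the constant exons, there were 29.9 ± 0.57 Pcdhac2 reads per 100 alpha exon 1 to 2 reads in P49 neocortex and 24.7 ± 1.6 in P10 neocortex (SD, n = 2 each). This difference in use, 0.28 on the log2 scale against the other cluster junctions, did not pass the test (edgeR diffSpliceDGE adjusted p = 0.65). The intron within alpha constant exon 3 had 155 and 150 reads at P49, against 317 and 347 reads at P10, a log2 change of -0.97 (SE 0.14, edgeR adjusted p = 7.6e-06). Its use relative to exon 2 to 3 was close in both groups, with 18.2 ± 1.2 reads per 100 at P49 and 17.6 ± 0.071 at P10.

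The gamma constant exons differed less. The exon 1 to 2 junction had 4234 and 4031 reads (64.0 and 68.6 CPM) in P49 neocortex, against 5215 and 5590 reads (78.0 and 77.9 CPM) in P10 neocortex, a log2 change of -0.23 (SE 0.067, edgeR adjusted p = 0.0077). The exon 2 to 3 junction had 52.8 and 55.7 CPM at P49, against 63.3 and 64.7 CPM at P10, a log2 change of -0.24 (SE 0.068, edgeR adjusted p = 0.0081). Both gamma calls were lost without P49 library 1, at adjusted p = 0.13 and 0.11; over all alternatives their adjusted p ran from 0.0056 to 0.13 and from 0.0073 to 0.11. The difference between the clusters was tested directly, a test added after the levels had been seen: the log2 change of alpha minus that of gamma at exon 1 to 2 was -0.70 (edgeR diffSpliceDGE adjusted p = 0.00017, and between 0.00048 and 0.018 over the alternatives). In reads, there were 20.9 and 19.3 alpha reads per 100 gamma reads in P49 neocortex, against 33.0 and 32.2 in P10 neocortex.

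Some marker lists differed between the ages beside these values. The oligodendrocyte markers summed to 2800 and 2860 CPM in P49 neocortex, against 1120 and 971 CPM in P10 neocortex, with all 6 detected. The 6 neuron markers summed to 5590 and 5510 CPM at P49 and 4370 and 4380 CPM at P10. That sum was carried by Snap25, a presynaptic fusion protein, with 3090 and 3010 CPM at P49 and 1040 and 1010 CPM at P10. Tubulin beta 3 and stathmin 2 differed in the opposite direction: Tubb3 had 188 and 208 CPM at P49, against 527 and 581 CPM at P10, and Stmn2 had 366 and 374 CPM at P49, against 1210 and 1300 CPM at P10. The part of these lists in the result was not tested. In bulk RNA, fewer cells that express a gene and less RNA per cell cannot be told apart.

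A gene named Gm38182 overlaps the gamma constant exons, with 5 annotated processed transcripts whose first exons lie just upstream of gamma constant exon 1. These junctions were singled out after their values were seen. The first exon of Gm38182-201 (47 nt, intron from 37824195, 826 nt) had 58 and 56 reads (0.877 and 0.953 CPM) in P49 neocortex, against 28 and 32 reads (0.419 and 0.446 CPM) in P10 neocortex. It rose by 1.08 on the log2 scale (SE 0.30, edgeR adjusted p = 0.0067), opposite in direction to the gamma constant exons. Against the other junctions of the cluster its use rose by 1.30 (edgeR diffSpliceDGE adjusted p = 0.0059), a call that was lost without either P10 library, at adjusted p = 0.086 and 0.076 (range over the alternatives 0.018 to 0.086). Relative to the gamma exon 1 to 2 junction there were 13.5 and 13.6 such reads per 1000 at P49, against 5.29 and 5.62 at P10. The first exon of Gm38182-202 (306 nt, intron from 37824665, 356 nt) had 94 and 96 reads at P49 and 91 and 124 reads at P10, a log2 difference of -0.02 (SE 0.18, edgeR adjusted p = 0.94). The other tested junctions into gamma exon 1, from Gm38182-204 and from an unannotated donor (intron of 156 nt), differed by -1.18 and 0.56 and were not called. Among these 4 junctions that share the gamma exon 1 acceptor, the difference in use of 0.81 for Gm38182-201 did not pass (edgeR diffSpliceDGE adjusted p = 0.17).

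In all, 11 cluster junctions passed the filter on low counts in the first table, 4 alpha and 7 gamma, and the rest could not be tested. Of the 11 tested, 6 were lower and 1 was higher at P49, with a median log2 change of -0.41. Of all 163066 junctions tested in this comparison, 37.4% were called, 18.6% higher and 18.8% lower, with a median of 0. Use within the cluster was called for 1 of them, where 1.63% of all junctions were called for use within their gene, and 0 were called at the shared gamma acceptor, where 4.32% of such junctions were called. Junctions of the same transcripts are not independent, so the 6 lower calls are not 6 separate events.

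**Figure D2:**
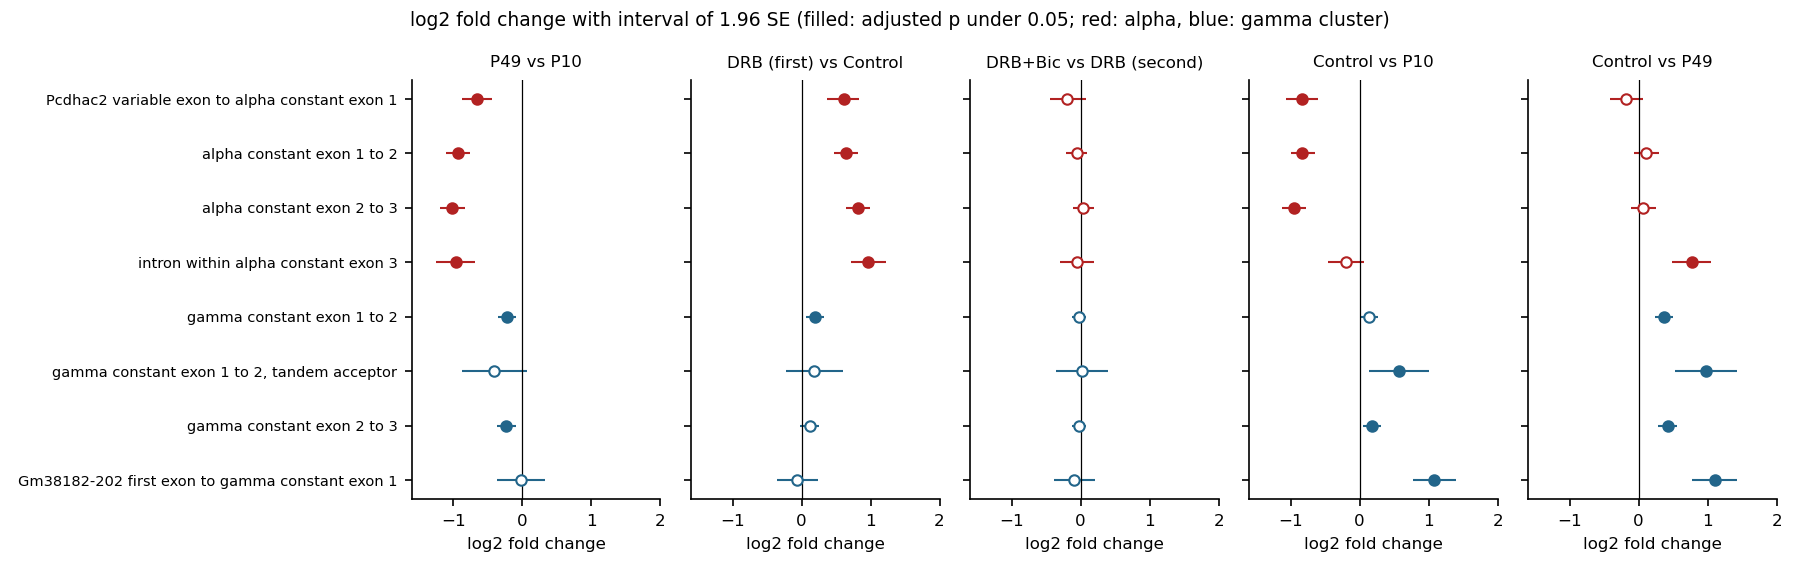
Log2 change of tested cluster junctions in the comparisons (points, red alpha, blue gamma). Bars give the 95% normal interval from the SE, and points are filled where the adjusted p was under 0.05. Gm38182-201, called higher at P49 than at P10 with a log2 change of 1.08, is described in the text. The 3 constant-exon changes of alpha lie between -1.02 and -0.94 for P49 against P10 and between 0.64 and 0.97 for DRB against untreated cultures, Pcdhac2 lies at -0.66 and 0.61, and the gamma exon 1 to 2 changes lie at -0.23 and 0.19.

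The DRB comparison asked how the clusters differ after elongation had been blocked for 2 hours. CPM is a share of the spliced reads that remain, so a higher value here is relative to other transcripts and is not an amount of RNA. All 4 alpha junctions were higher in the DRB cultures than in the untreated cultures. The exon 1 to 2 junction had 1337 and 1331 reads (23.7 and 21.8 CPM) with DRB, against 715 and 950 reads (13.2 and 15.9 CPM) without, a log2 change of 0.64 (SE 0.089, edgeR adjusted p = 4e-06). The exon 2 to 3 junction had 26.6 and 22.9 CPM with DRB, against 13.0 and 15.1 CPM without, and rose by 0.82 (SE 0.090, edgeR adjusted p = 1.7e-07). At both junctions the untreated libraries differed from each other by more than those of P10 or P49 did.

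Pcdhac2 had 326 and 313 reads (5.78 and 5.12 CPM) in the DRB cultures, against 195 and 212 reads (3.59 and 3.55 CPM) in the untreated cultures. It rose by 0.61 on the log2 scale (SE 0.12, edgeR adjusted p = 0.00025). Its ratio to the alpha exon 1 to 2 junction was 24.0 ± 0.64 per 100 with DRB and 24.8 ± 3.5 without (SD, n = 2 each), a difference smaller than the spread between the untreated libraries. The intron within constant exon 3 had 9.16 and 7.13 CPM with DRB, against 3.75 and 4.54 CPM without, a log2 change of 0.97 (SE 0.13, edgeR adjusted p = 2.2e-06). The alpha calls in this comparison and in the P49 comparison were kept under every alternative run.

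The gamma exon 1 to 2 junction had 98.8 and 96.1 CPM in the DRB cultures, against 85.6 and 85.4 CPM in the untreated cultures. The log2 change of 0.19 passed the test (SE 0.066, edgeR adjusted p = 0.024). That call was lost without a filter on low counts and with each of the 4 libraries left out, and its adjusted p ran from 0.0095 to 0.13 over the alternatives. The gamma exon 2 to 3 junction stood at 78.7 ± 3.3 CPM with DRB and 72.5 ± 0.98 CPM without (SD, n = 2 each), a log2 difference of 0.12 that did not pass (SE 0.068, edgeR adjusted p = 0.17). Neither Gm38182 first exon passed: Gm38182-201 differed by -0.74 (SE 0.35, edgeR adjusted p = 0.091) and Gm38182-202 by -0.06 (SE 0.15, edgeR adjusted p = 0.77). The alpha change exceeded the gamma change by 0.45 on the log2 scale (edgeR diffSpliceDGE adjusted p = 0.02). This difference lost its call without the filter and without untreated library 1, DRB library 1 or DRB library 2, at values from 0.323 to 0.495 and with adjusted p from 0.0079 to 0.65 over the alternatives.

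Of the 11 tested junctions, 5 were called higher with DRB and 0 lower, with a median of 0.18. Across all junctions 44.6% were called, 22.3% higher and 22.4% lower. Use within a cluster was called for 0 of them, where 1.95% of all junctions were called, and use of the shared gamma acceptor for 0, where 4.85% were called. The neuron markers moved with these values: they summed to 3860 and 3730 CPM in the DRB cultures, against 1960 and 2020 CPM in the untreated cultures, with 6 of 6 detected. The 5 excitatory neuron markers summed to 732 and 701 CPM with DRB, against 354 and 386 CPM without. Mural cell markers summed to 153 and 152 CPM with DRB, against 668 and 546 CPM without. That sum was carried by Acta2, with 133 and 130 CPM with DRB, against 622 and 499 CPM without. Pdgfrb and Cspg4 were also lower with DRB. Rgs5 was higher at a very low level, with 0.219 and 0.257 CPM with DRB, against 0.0573 and 0.121 CPM without. The part of these shifts in the alpha result was not tested.

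Bicuculline lifts inhibition and raises network activity, and the next comparison asked what it changes on top of DRB. No cluster junction differed between DRB plus bicuculline and DRB alone. Of 11 tested junctions 0 were called by edgeR, and 0 had an unadjusted p under 0.05; DESeq2 also called 0. Across all 146307 junctions 0.0793% were called, 0.0677% higher and 0.0116% lower. For use within a gene 0.00208% of all junctions were called and for use of a shared acceptor 0.00834%, with 0 cluster junctions among either. Pcdhac2 had 185 and 178 reads (2.67 and 2.86 CPM) with bicuculline, against 188 and 211 reads (2.89 and 3.39 CPM) without, a log2 difference of -0.19 with an interval from -0.45 to 0.08. The alpha exon 1 to 2 junction had 761 and 715 reads with bicuculline and 743 and 740 reads without, and its log2 difference of -0.05 had an interval from -0.21 to 0.10. The gamma exon 1 to 2 junction had 4729 and 4034 reads with bicuculline and 4411 and 4170 reads without, with a log2 difference of -0.02 and an interval from -0.12 to 0.08. These are 95% normal intervals from the SE, and they give the sizes of change that 2 libraries a group do not separate from 0.

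The untreated cultures were also set against both ages of tissue, with which they share no library; the P49 and P10 comparisons share the culture libraries. The alpha constant exons of the cultures were near the P49 level and below the P10 level. Alpha exon 1 to 2 stood at 14.5 ± 2.0 CPM in the untreated cultures, 13.5 ± 0.028 CPM in P49 neocortex and 25.9 ± 0.43 CPM in P10 neocortex (SD, n = 2 each). It fell by 0.83 relative to P10 (SE 0.089, edgeR adjusted p = 2.7e-08) and differed by 0.11 from P49, with an interval from -0.07 to 0.29 (edgeR adjusted p = 0.31). Pcdhac2 likewise fell by 0.84 relative to P10 (SE 0.12, edgeR adjusted p = 1.5e-06) and differed by -0.18 from P49, with an interval from -0.42 to 0.06.

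The gamma constant exons of the cultures were above P49. Exon 1 to 2 stood at 85.6 and 85.4 CPM in the untreated cultures, against 64.0 and 68.6 CPM in P49 neocortex, a log2 change of 0.37 (SE 0.067, edgeR adjusted p = 4.7e-05). Exon 2 to 3 rose by 0.42 (SE 0.069, edgeR adjusted p = 1.3e-05). Against P10 the exon 1 to 2 difference of 0.13 did not pass (SE 0.067, edgeR adjusted p = 0.088). Exon 2 to 3 rose by 0.18 against P10 (SE 0.068, edgeR adjusted p = 0.027), a call lost in a fit of the compared groups alone and without untreated library 2 or either P10 library (adjusted p from 0.019 to 0.084 over the alternatives). The log2 change of alpha minus that of gamma at exon 1 to 2 was -0.96 against P10 (edgeR diffSpliceDGE adjusted p = 2.5e-07), and that against P49, -0.26, did not pass (edgeR diffSpliceDGE adjusted p = 0.28).

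The cultures differed from tissue in which ends of the shared region were spliced. The intron within alpha constant exon 3 was removed in 29.5 ± 0.71 reads per 100 exon 2 to 3 reads in the untreated cultures, against 18.2 ± 1.2 in P49 neocortex and 17.6 ± 0.071 in P10 neocortex (SD, n = 2 each). Its use within the cluster rose by 0.65 on the log2 scale relative to P49 (edgeR diffSpliceDGE adjusted p = 0.003) and by 0.62 relative to P10 (edgeR diffSpliceDGE adjusted p = 0.0022). The call against P49 was lost without untreated library 2 or either P49 library, and that against P10 without untreated library 2 or either P10 library, with adjusted p from 0.0057 to 0.28 and from 0.0062 to 0.083 over the alternatives, while the differences stayed between 0.58 and 0.71 and between 0.58 and 0.64. The other culture groups had similar ratios: the DRB cultures had 34.5 and 31.1 reads per 100, and the cultures of the second table averaged 28.7 ± 4.5 with DRB plus bicuculline and 30.6 ± 0.57 with DRB alone (SD, n = 2 each).

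At the gamma end, Gm38182-202 had 184 and 190 reads (3.39 and 3.18 CPM) in the untreated cultures, against 94 and 96 reads (1.42 and 1.63 CPM) in P49 neocortex and 91 and 124 reads (1.36 and 1.73 CPM) in P10 neocortex. It rose by 1.11 relative to P49 (SE 0.16, edgeR adjusted p = 3.5e-06) and by 1.08 relative to P10 (SE 0.16, edgeR adjusted p = 4.2e-06). Within the cluster its use rose by 0.70 relative to P49 (edgeR diffSpliceDGE adjusted p = 0.0057; lost without untreated library 1 or P49 library 1, range over the alternatives 0.011 to 0.11) and by 0.91 relative to P10 (edgeR diffSpliceDGE adjusted p = 0.00016). Among the 4 junctions that share the gamma exon 1 acceptor, the use of Gm38182-202 did not pass. It differed by 0.41 against P49 (edgeR diffSpliceDGE adjusted p = 0.16) and by 0.12 against P10. Gm38182-201 differed in the opposite direction against P49, with 21 and 41 reads (0.386 and 0.687 CPM) in the untreated cultures and 58 and 56 reads (0.877 and 0.953 CPM) in P49 neocortex. Its level fell by 0.75 (SE 0.30, edgeR adjusted p = 0.032), a call lost with DESeq2, without a filter, and without untreated library 1 (-0.398) or either P49 library (adjusted p from 0.011 to 0.33 over the alternatives). Its use fell by 1.45 among the 4 junctions that share the gamma exon 1 acceptor (edgeR diffSpliceDGE adjusted p = 0.00072), a call lost without untreated library 1. Within the whole cluster its use fell by 1.16 (edgeR diffSpliceDGE adjusted p = 0.008), a call lost without that library (-0.819) and without a filter (adjusted p from 0.0096 to 0.37 over the alternatives). Gm38182-204 was also called higher than at P49, on few reads: 8 and 12 in the untreated cultures, against 1 and 4 in P49 neocortex. Reads of Gm38182-202 outnumbered those of Gm38182-201 by 6.70 ± 2.9 to 1 in the untreated cultures, 1.66 ± 0.064 to 1 in P49 neocortex and 3.56 ± 0.45 to 1 in P10 neocortex (SD, n = 2 each).

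**Figure D3:**
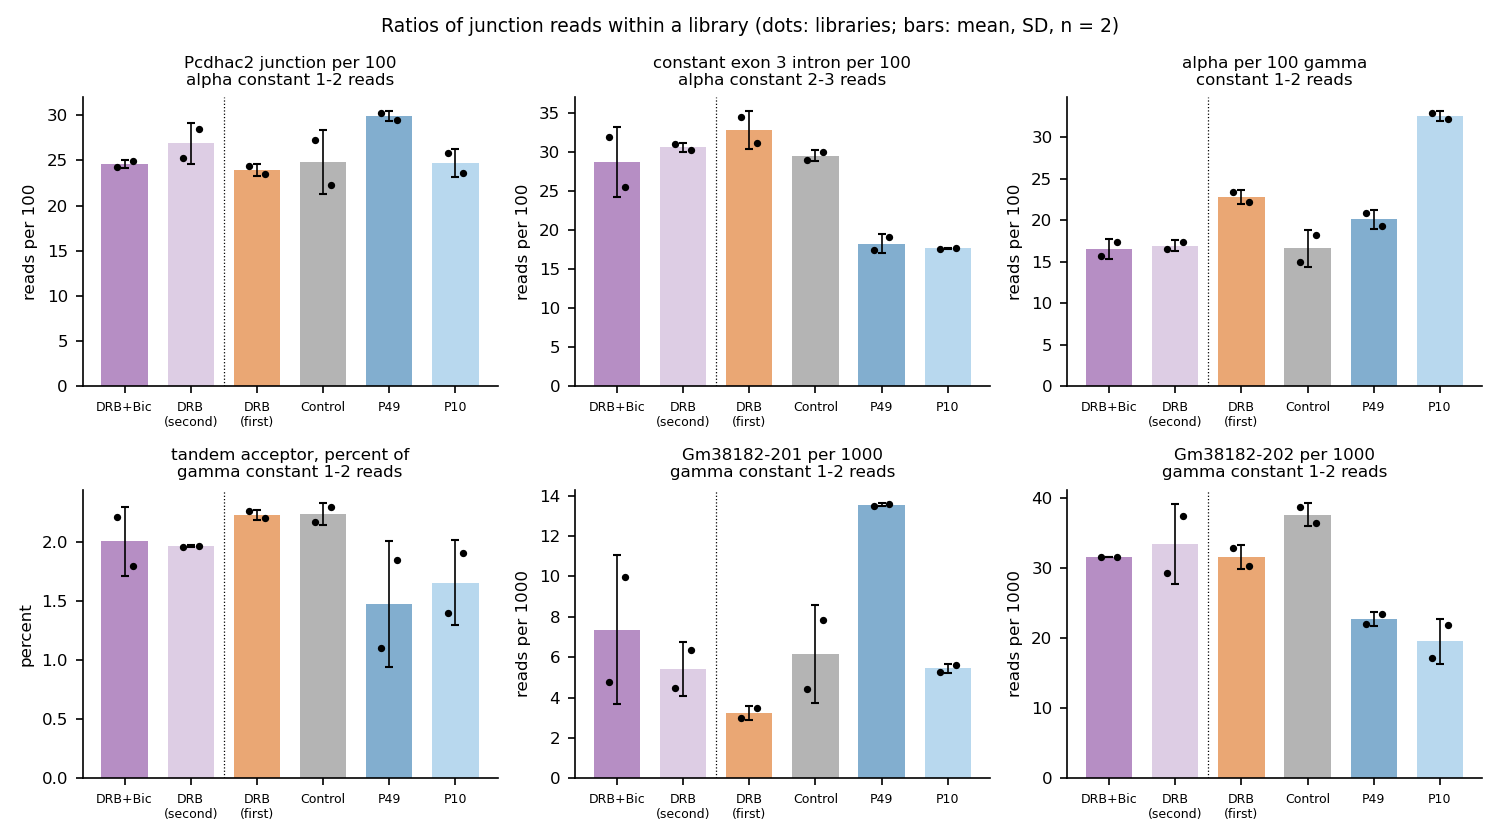
Ratios of junction reads within each library (dots) with the mean and SD of each group (bars, n = 2): Pcdhac2 per 100 alpha exon 1 to 2 reads, the intron within alpha constant exon 3 per 100 exon 2 to 3 reads, alpha per 100 gamma exon 1 to 2 reads, the tandem acceptor as a percentage, and each Gm38182 first exon per 1000 gamma exon 1 to 2 reads. The intron within constant exon 3 lies near 18 per 100 in neocortex and near 30 per 100 in cultures, Gm38182-201 stands at 13.6 per 1000 in P49 neocortex, and alpha per 100 gamma reads stands at 32.6 in P10 neocortex.

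A further splice form of the gamma constant exons used an unannotated acceptor 3 bases upstream of the annotated start of exon 2. It carried 1.10% (95% exact binomial interval 0.808% to 1.46%) and 1.85% (1.46% to 2.31%) of exon 1 to 2 reads at both acceptors in the P49 libraries, and 1.40% (1.10% to 1.75%) and 1.91% (1.57% to 2.30%) in the P10 libraries. In the untreated cultures it carried 2.17% (1.77% to 2.62%) and 2.30% (1.91% to 2.74%). The intervals cover counting error only. The P49 libraries differed from each other by more than the group means of the ages differed. Its level rose in the untreated cultures by 0.98 relative to P49 (SE 0.23, edgeR adjusted p = 0.00081) and by 0.57 relative to P10 (SE 0.22, edgeR adjusted p = 0.029), and the P10 call was lost with DESeq2 and without either untreated library or P10 library 1 (0.372; adjusted p from 0.0076 to 0.20 over the alternatives). Its use within the cluster did not pass, at 0.58 against P49 (edgeR diffSpliceDGE adjusted p = 0.12) and 0.39 against P10 (edgeR diffSpliceDGE adjusted p = 0.38). Its share in DRB cultures, 2.23% ± 0.042, lay within the range of the untreated cultures.

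Of the 11 tested junctions, 6 were higher and 1 was lower in the untreated cultures than at P49, with a median of 0.42, where 63.7% of all junctions were called, 32.4% higher and 31.3% lower. Against P10, 3 were higher and 3 lower, with a median of 0.18, where 61% of all junctions were called, 29.9% higher and 31.1% lower. Use within a cluster was called for 3 of the 11 against P49, where 5.55% of all junctions were called, and for 2 against P10, where 5.32% were called. At the shared gamma acceptor 1 was called against P49, where 12.2% of such junctions were called, and 0 against P10, where 8.29% were called. Oligodendrocyte markers summed to 103 and 116 CPM in the untreated cultures, against 2800 and 2860 CPM at P49 and 1120 and 971 CPM at P10. Neuron markers summed to 1960 and 2020 CPM in the untreated cultures, below both ages. Snap25, Syt1 and Rbfox3 each lay below both ages. Map2 did not, with 451 and 443 CPM there, against 434 and 424 CPM at P49 and 399 and 376 CPM at P10. Tubb3 and Stmn2 lay below P10 but above P49. Tubb3 had 239 and 267 CPM in the untreated cultures, against 188 and 208 CPM at P49. Stmn2 had 517 and 519 CPM, against 366 and 374 CPM at P49. The part of cell makeup in these differences was not tested.

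Genes around the clustered protocadherins were read as summed junction reads per gene, in 4 lists of 69 genes. Such sums grow with the number of junctions of a gene, so levels are compared between groups and not between genes, and each value is a mean ± SD of 2 libraries. The first list held 12 non-clustered protocadherins, adhesion proteins with a single gene each. At P49, 1 was higher and 6 were lower than at P10, with a median of -0.28, against a background of 56.3% of all genes called (27.8% higher, 28.5% lower) and a median of 0. Pcdh12, known from endothelial cells, had 0.0726 ± 0.0054 CPM at P49 and 1.12 ± 0.10 CPM at P10, a log2 change of -3.90 (SE 0.42, edgeR adjusted p = 2e-05). Of 5 endothelial markers 4 had junction counts, and they summed to 162 and 144 CPM at P49, against 199 and 201 CPM at P10. Kdr had 25.3 and 24 CPM at P49, against 97 and 96.9 CPM at P10. Flt1 went the other way, with 83.1 and 74.7 CPM at P49, against 43.1 and 41.8 CPM at P10, and Pecam1 and Tek differed less. The part of these markers was not tested. Pcdh19, the gene of an X-linked epilepsy, had 6.59 ± 0.54 CPM at P49 and 10.7 ± 3.3 CPM at P10 and fell by 0.70. In the DRB cultures 7 of the 12 were higher and 2 lower than in untreated cultures, with a median of 0.52, or 0.42 without Pcdh12, which had 0 reads in both untreated libraries; the background was 62.2% of all genes (29.4% higher, 32.8% lower) with a median of -0.03. Pcdh9 had 13.6 ± 0.085 CPM with DRB and 7.67 ± 1.1 CPM without, a log2 change of 0.82 (SE 0.11, edgeR adjusted p = 4.1e-05), and Pcdh19 rose by 0.78. The 7 calls of this list at P49 became 4 without P49 library 1, and its 9 calls with DRB became 5 without either DRB library.

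The second list held 20 genes of promoter choice and chromatin, among them CTCF, cohesin and its loaders, and DNA methyltransferases. At P49, 5 rose and 5 fell relative to P10, with a median of 0.05, where 56.3% of all genes were called. Dnmt3a, a de novo DNA methyltransferase, had 75.3 ± 0.090 CPM at P49 and 258 ± 4.3 CPM at P10 and fell by 1.78 (SE 0.048, edgeR adjusted p = 3.9e-10). Wapl, which releases cohesin from chromatin, rose by 0.64, with 59.9 ± 1.7 CPM at P49 and 38.3 ± 2.4 CPM at P10. Ctcf did not pass, with 69.4 ± 2.0 CPM at P49 and 63.2 ± 3.1 CPM at P10 (log2 difference 0.13, edgeR adjusted p = 0.055). In the DRB cultures 2 of the 20 were higher and 9 lower than in untreated cultures, with a median of -0.12, where 62.2% of all genes were called. Ctcf had 47.9 ± 1.9 CPM with DRB and 74.2 ± 0.51 CPM without and fell by 0.63 (edgeR adjusted p = 1.7e-06), while Smc3, a core cohesin subunit, had 137 ± 0.37 CPM with DRB and 232 ± 11 CPM without and fell by 0.76. In the same DRB libraries the alpha junctions were higher. In the untreated cultures 16 of the 20 were higher and 1 lower than at P49, with a median of 0.66 where 76% of all genes were called (39.1% higher, 36.9% lower), and 13 were higher and 3 lower than at P10, with a median of 0.29 where 73.7% were called (36.8% higher, 36.9% lower).

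The third list held 23 intracellular partners and processing enzymes, such as the kinases bound by protocadherin tails, the WAVE complex and gamma-secretase. At P49, 5 rose and 11 fell relative to P10, with a median of -0.12, where 56.3% of all genes were called. Ptk2b, the kinase PYK2 that protocadherins restrain, had 1260 ± 5.1 CPM at P49 and 459 ± 1.7 CPM at P10 and rose by 1.46 (SE 0.041, edgeR adjusted p = 4.8e-10). Fyn had 168 ± 1.3 CPM at P49 and 280 ± 10 CPM at P10 and fell by 0.73. With DRB, 13 rose and 5 fell, with a median of 0.23, where 62.2% of all genes were called; Ptk2b had 208 ± 6.4 CPM with DRB and 114 ± 0.52 CPM without (log2 change 0.87), and Wasf1, a WAVE subunit, had 247 ± 11 CPM with DRB and 147 ± 2.2 CPM without (log2 change 0.75). The fourth list held 14 cadherins and catenins. At P49, 1 rose and 9 fell, with a median of -0.42, where 56.3% of all genes were called; Cdh13 had 107 ± 0.45 CPM at P49 and 256 ± 7.8 CPM at P10 and fell by 1.26, and Ctnnb1, beta-catenin, fell by 0.61. With DRB, 7 rose and 4 fell, with a median of 0.16, where 62.2% of all genes were called; Cdh13 had 388 ± 6.7 CPM with DRB and 187 ± 2.3 CPM without and rose by 1.05.

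With bicuculline, 0 genes of the 4 lists were called by edgeR or DESeq2, and 3 had an unadjusted p under 0.05 with edgeR. Of all genes, 0.209% were called in that comparison, 0.181% higher and 0.0278% lower. Against P49, the untreated cultures had 4 non-clustered protocadherins higher and 4 lower, 11 partners higher and 8 lower, and 9 cadherins and catenins higher and 5 lower, where 76% of all genes were called. Against P10 the same lists had 3 higher and 6 lower, 10 higher and 10 lower, and 5 higher and 8 lower, where 73.7% of all genes were called.

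**Figure D4:**
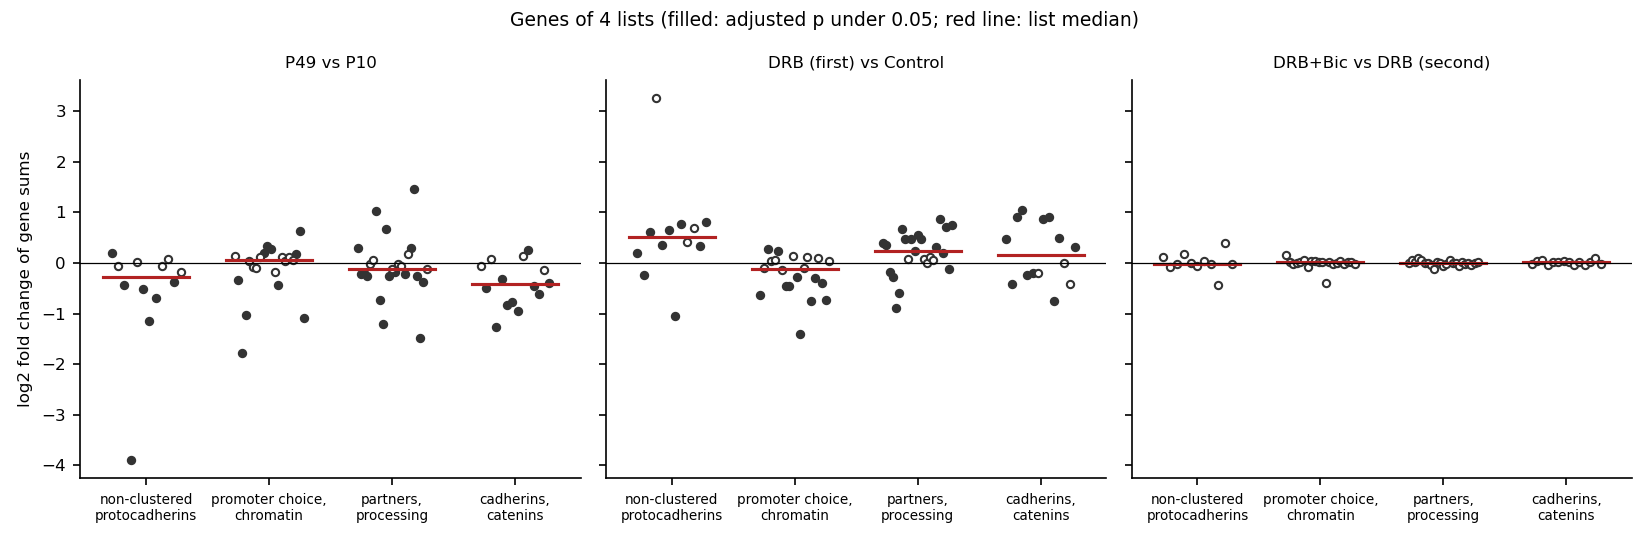
Log2 changes of the members of the 4 gene lists (dots; filled where the adjusted p was under 0.05) in 3 comparisons: P49 against P10, DRB against untreated cultures, and DRB plus bicuculline against DRB alone. Dnmt3a lies at -1.78 and Ptk2b at 1.46 for P49 against P10, and no gene is filled with bicuculline.

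The junctions between the alpha and gamma clusters lay among the beta genes, which resemble each other in sequence. Of 235 such junctions in the table of 8 libraries, 135 joined different beta genes and took 2039 of 2417 reads; in the table of 4 libraries 89 of 179 did so, with 929 of 1393 reads. Many of them jumped between matching positions: of 28 gene pairs with at least 2 junctions, 21 had at least 2 introns of identical length. From Pcdhb5 to Pcdhb7, 5 of 5 junctions had an intron of 21340 nt and together held 362 reads, and from Pcdhb3 to Pcdhb5, 5 of 5 had 19583 nt and held 148 reads. None of these is annotated. Of 9 beta junctions tested, 0 were called between P49 and P10, where 37.4% of all junctions were called. Between DRB and untreated cultures, where 44.6% of all junctions were called, 1 was called, a Pcdhb3 to Pcdhb5 junction with 0.273 ± 0.040 CPM with DRB and 0.0971 ± 0.019 CPM without (log2 change 1.48, SE 0.55, edgeR adjusted p = 0.034; SD, n = 2 each). In the untreated cultures 1 beta junction was called higher and 1 lower than at P10, where 61% of all junctions were called, and 0 were called against P49, where 63.7% were called. Whether such reads come from spliced transcripts or from alignment between similar genes was not tested, and their levels are not those of the beta genes.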

How the data were processed

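Exon-exon junction reads of 12 stranded poly(A) RNA libraries (6 groups of 2) were used as the whole-number counts per junction that the authors deposited in 2 tables; the submitters' processing notes name STAR 2.4.0f1 and the build mm10, which is GRCm38. The counter and its filters are not given in the sources used here. Columns were matched to groups by name; untreated, P49 and second DRB columns were left after the others had been matched, and 72 further per-library columns were not used. Each distinct junction was kept once. Rows without a gene symbol held 0.084% and 0.095% of reads.

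Each table was fitted alone, with all its groups, by edgeR 4.0.16 in R 4.3.3 (filterByExpr, TMM, quasi-likelihood test, Benjamini-Hochberg over all junctions or genes), and use by diffSpliceDGE. Calls are at an adjusted p under 0.05. Ratios and CPM were computed from the counts. Introns and transcripts were named from GENCODE M21. Gene sums used annotated introns. Alternatives were DESeq2 1.42.0, fits that keep low-count junctions, fits of just the compared pair of groups, junctions of annotated introns alone, gene sums over every junction with a symbol, and each library left out. The fits were tested on simulated data.

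The members and lists were chosen with earlier results of these data known. Named junctions were the C-type genes, the constant-exon junctions and variable-exon junctions with calls and a mean of at least 20 reads. Gm38182, the tandem acceptor and the test of alpha against gamma were added after values were seen. The planned test of use was that of a shared acceptor. The test of use within a cluster, and the calls that rest on it, were not in the plan. Up to 4 genes a list were named by smallest p, and Ctcf after its values were seen. Replicates differed beyond sampling noise in every group (chi-square per junction 1.97 to 4.02), the most in P10 neocortex (4.02) and then in P49 neocortex (3.02). Depth limits low junctions: 11 cluster junctions could be tested in each table.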

Additional observations from a re-analysis of the deposited data

Results flagged for a closer look

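Reads outside the comparisons were found at annotated variable-exon introns of the clusters. Rows on the strand opposite to the genes, with no gene symbol, matched 9 of these introns in the table of 8 libraries, 7 of them with reads. In the table of 4 libraries they matched 11, all with reads. They held 14 and 25 reads over all libraries of a table. No control samples bear on them. The limit of 3 that a count of 0 allows is for a single count, and these are sums over introns and libraries. That they exceed it therefore does not show a signal, and their source was not tested.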

How the results depend on the processing

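Of 24 junction changes that passed the test, the direction held in each alternative run and the call was kept in 170 of 190 fits; the 20 lost calls belong to 6 results, named beside their values. With DESeq2 the Gm38182-202 difference between P49 and P10 was 0.00177 against -0.02, and without a filter the alpha minus gamma difference between DRB and untreated cultures was 0.454 (adjusted p = 0.17). Leaving out a library gave ranges, for uncalled junctions, of -0.150 to 0.678 (Gm38182-201, untreated cultures against P10), -0.144 to 0.0127 (Gm38182-202, DRB against untreated), -0.181 to 0.159 (Gm38182-202, P49 against P10), -0.0270 to 0.249 and -0.0381 to 0.187 (alpha exon 1 to 2 and exon 2 to 3, untreated against P49), and -0.0560 to 0.0193 (gamma exon 1 to 2, bicuculline). The alpha minus gamma difference ran from -0.103 to 0.0359 with bicuculline and from 0.323 to 0.600 with DRB. Counts of calls ran from 0 to 1 for list genes with bicuculline, 0 to 1 for use at the shared gamma acceptor in untreated cultures against P49, and, for use within a cluster, 0 to 1 (P49 against P10), 1 to 2 (untreated against P10) and 1 to 3 (untreated against P49). The cause was not tested. A lone library left in a group is assumed to vary like the other groups.

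In the table of 4 libraries, column letters a and b recur in both groups, and deviations of same-letter libraries correlated at 0.0609 over 129376 junctions, so the letters are not shown to pair; with the replicate block 0 member junctions were called, as without it. For the table of 8 libraries, the sample titles carry the letters A and B in each group, but the column names do not show them. No paired analysis was run there, since its columns carry no shared number and could not be matched to those letters. Depth limits the Gm38182-201 and Gm38182-202 junctions, which hold 17 to 190 reads a library, and 2 libraries a group limit all tests.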
